A study of Mus musculus with 26 samples.

Results

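The 9 genes described here encode the enzymes and cofactors that write, copy and remove DNA methylation in the mouse. They are Dnmt1, Uhrf1, Dnmt3a, Dnmt3b, Dnmt3l, Tet1, Tet2, Tet3 and Tdg. They were chosen by name, with earlier results of these data known. Each matched 1 row among the 18198 genes of the deposited expression table, and all 9 passed the filter on low values that left 16038 genes for testing. Methylation of cytosine at CpG sites is copied after DNA replication by Dnmt1, which Uhrf1 brings to hemimethylated DNA, and is placed on unmethylated DNA by Dnmt3a and Dnmt3b. Dnmt3l has no catalytic activity of its own and stimulates those de novo enzymes. The Tet proteins oxidise methylcytosine, and Tdg excises the later oxidation products so that repair can restore an unmodified cytosine. In fibroblasts turned into pluripotent cells, silenced pluripotency genes have to lose methylation, and stem cells kept in medium with inhibitors of Mek and Gsk3 are known for low methylation of the whole genome.

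RNA was sequenced from 26 mouse libraries, 2 for each of 13 groups. iPSC (passages 5 to 8) came from picked colonies and ESC (passages 20 to 24, CBA/CaJ X C57BL/6J) are embryonic stem cells, and both were grown in N2B27+2i+LIF medium. OSK-shSap30 cells carried the OSK factors (in the field's usual sense Oct4, Sox2 and Klf4) and a lentiviral hairpin against Sap30 and were taken at day 7. OSK-cJun cells carried the factors with cJun and were taken at days 0, 1, 3 and 7. OSK cells carried the factors alone, delivered by retrovirus to fibroblasts of at most 2 passages, and were taken at days 0, 1, 3, 5 and 7. Infected cells were in iCD1 or in an ESC medium with FBS and LIF, and the labels do not tie a medium to a library. MEF, embryonic fibroblasts of passage 2 in medium with 10% FBS, were the fibroblast group. Every infected group shared the retroviral factors, and the labels named neither a control hairpin nor an empty vector for the OSK libraries, nor a strain other than that of ESC. Nothing in them says that the 2 replicates of a group came from separate cultures, and p-values then measure only the spread between these libraries, which may be technical.

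Values are the authors' normalised scores, which had the same distribution in every library, so sequencing depth could not be read from them. Replicates correlated at 0.925 (MEF) to 0.960 (iPSC) across tested genes, which are not independent of one another. Sap30 stood at 20 and 41 in OSK-shSap30 day 7, against 301 and 378 in OSK day 7, and Jun was between 4616 and 8981 in OSK-cJun libraries, against 321 to 1010 in OSK libraries. Summed values of 8 fibroblast markers ran from 7596 to 14150 in iPSC, from 168 to 639 in ESC and from 79668 to 83452 in MEF. Summed values of 8 pluripotency markers were 24418 to 24816 in iPSC, 27930 to 27956 in ESC and 9 to 34 in MEF. Fibroblast markers were thus well above the ESC level in iPSC. The OSK day 5 libraries stood apart from each other, with Pou5f1, the gene of the factor Oct4, at 656 in replicate 1 and 21544 in replicate 2, and with fibroblast markers at 30592 and 12026 in the same order. Called results of the 9 genes that use day 5 are therefore given with and without each of them. In whole-culture RNA, fewer cells with a transcript and less transcript per cell cannot be told apart.

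All 9 genes are protein coding in GENCODE M21 on GRCm38 (mm10). The copying pair are Dnmt1 (ENSMUSG00000004099, chromosome 9, 20907209 to 20959888, minus strand) and Uhrf1 (ENSMUSG00000001228, chromosome 17, 56303321 to 56323486, plus strand). The de novo group are Dnmt3a (ENSMUSG00000020661, chromosome 12, 3806007 to 3914443, plus), Dnmt3b (ENSMUSG00000027478, chromosome 2, 153649450 to 153687730, plus) and Dnmt3l (ENSMUSG00000000730, chromosome 10, 78041947 to 78063622, plus). The oxidising enzymes are Tet1 (ENSMUSG00000047146, chromosome 10, 62804570 to 62908996, minus), Tet2 (ENSMUSG00000040943, chromosome 3, 133463679 to 133545139, minus) and Tet3 (ENSMUSG00000034832, chromosome 6, 83362373 to 83459084, minus). The glycosylase gene Tdg is ENSMUSG00000034674 (chromosome 10, 82629828 to 82650799, plus). Values are per gene, so the long and short forms of Dnmt3a, or the forms of Dnmt1 with other first exons, were not separated.

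The RefSeq promoter windows of these genes (GRCm38.p6, 300 bases around each start site, 16 windows for 9 genes) differed widely in CpG content, the substrate of the enzymes they encode. The median over 32851 mouse promoter windows was 7 CpG sites in 300 bases. Tet2 held 57, with 99.8% of windows holding fewer, Dnmt3b held 30 and Tet1 held 17. The 3 windows of Dnmt3l held 6, 4 and 3. One window of Dnmt1, at the last of its 3 start sites, and one of Uhrf1, at the second of 2, each held 33. These 2 windows were also the only ones of the 16 with an E2F-like match (TTTNGCGC on either strand), 2 for Dnmt1 and 1 for Uhrf1. The motif was present in 1.38% of all windows. It contains a CpG, and 91.4% of all windows held fewer CpG sites than these 2. Its share among windows equally rich in CpG was not computed. An AP-1 motif (TGANTCA, in 7.81% of all windows) and an octamer (ATGCAAAT, in 1.74%) had no match in the 16 windows. Sequences are shown for the copying pair, which act together and were both higher in pluripotent cells, with the E2F-like letters in capitals:
Dnmt1, minus strand, chr9:20952574-20952873: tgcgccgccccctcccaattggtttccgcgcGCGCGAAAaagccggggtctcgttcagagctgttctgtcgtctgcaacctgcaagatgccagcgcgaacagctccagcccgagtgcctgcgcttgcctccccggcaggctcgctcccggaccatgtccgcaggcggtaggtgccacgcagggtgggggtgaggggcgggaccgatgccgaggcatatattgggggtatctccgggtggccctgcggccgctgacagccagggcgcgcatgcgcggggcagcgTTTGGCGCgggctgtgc
Uhrf1, plus strand, chr17:56304063-56304362: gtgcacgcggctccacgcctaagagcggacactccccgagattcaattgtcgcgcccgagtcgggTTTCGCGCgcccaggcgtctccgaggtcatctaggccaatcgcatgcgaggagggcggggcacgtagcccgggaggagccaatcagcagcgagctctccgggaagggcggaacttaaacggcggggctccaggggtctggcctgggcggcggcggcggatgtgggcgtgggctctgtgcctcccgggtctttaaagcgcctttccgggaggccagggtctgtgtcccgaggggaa
They are shown for 3 genes high in pluripotent cells, and for Tet2, which peaked at OSK day 3, with every CpG in capitals:
Dnmt3b, plus strand, chr2:153649199-153649498: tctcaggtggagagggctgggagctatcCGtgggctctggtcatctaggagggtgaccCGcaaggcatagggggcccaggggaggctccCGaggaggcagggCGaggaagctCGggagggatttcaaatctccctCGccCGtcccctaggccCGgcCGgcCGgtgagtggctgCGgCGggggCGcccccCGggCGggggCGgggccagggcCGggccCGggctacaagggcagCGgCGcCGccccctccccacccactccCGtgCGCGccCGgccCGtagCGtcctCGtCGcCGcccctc
Dnmt3l, first start site, plus strand, chr10:78042037-78042336: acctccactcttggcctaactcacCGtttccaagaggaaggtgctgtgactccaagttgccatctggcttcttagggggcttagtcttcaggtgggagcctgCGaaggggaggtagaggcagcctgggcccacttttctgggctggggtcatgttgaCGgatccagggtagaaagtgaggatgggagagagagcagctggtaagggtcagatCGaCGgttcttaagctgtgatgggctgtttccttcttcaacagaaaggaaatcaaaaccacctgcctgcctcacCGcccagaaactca
Tet1, minus strand, chr10:62887275-62887574: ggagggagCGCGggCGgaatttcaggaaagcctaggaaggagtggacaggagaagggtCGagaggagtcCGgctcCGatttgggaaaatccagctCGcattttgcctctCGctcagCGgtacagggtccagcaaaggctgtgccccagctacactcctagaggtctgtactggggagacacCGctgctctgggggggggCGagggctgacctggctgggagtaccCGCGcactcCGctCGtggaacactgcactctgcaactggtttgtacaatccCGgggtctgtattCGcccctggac
Tet2, minus strand, chr3:133544341-133544640: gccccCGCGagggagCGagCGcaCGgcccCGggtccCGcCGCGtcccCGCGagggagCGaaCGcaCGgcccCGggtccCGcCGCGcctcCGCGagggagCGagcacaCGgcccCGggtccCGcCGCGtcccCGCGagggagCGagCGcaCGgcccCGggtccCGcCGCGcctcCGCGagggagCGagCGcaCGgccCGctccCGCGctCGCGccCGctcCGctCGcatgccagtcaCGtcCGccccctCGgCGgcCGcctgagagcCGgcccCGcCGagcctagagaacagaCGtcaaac

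**Figure D1:**
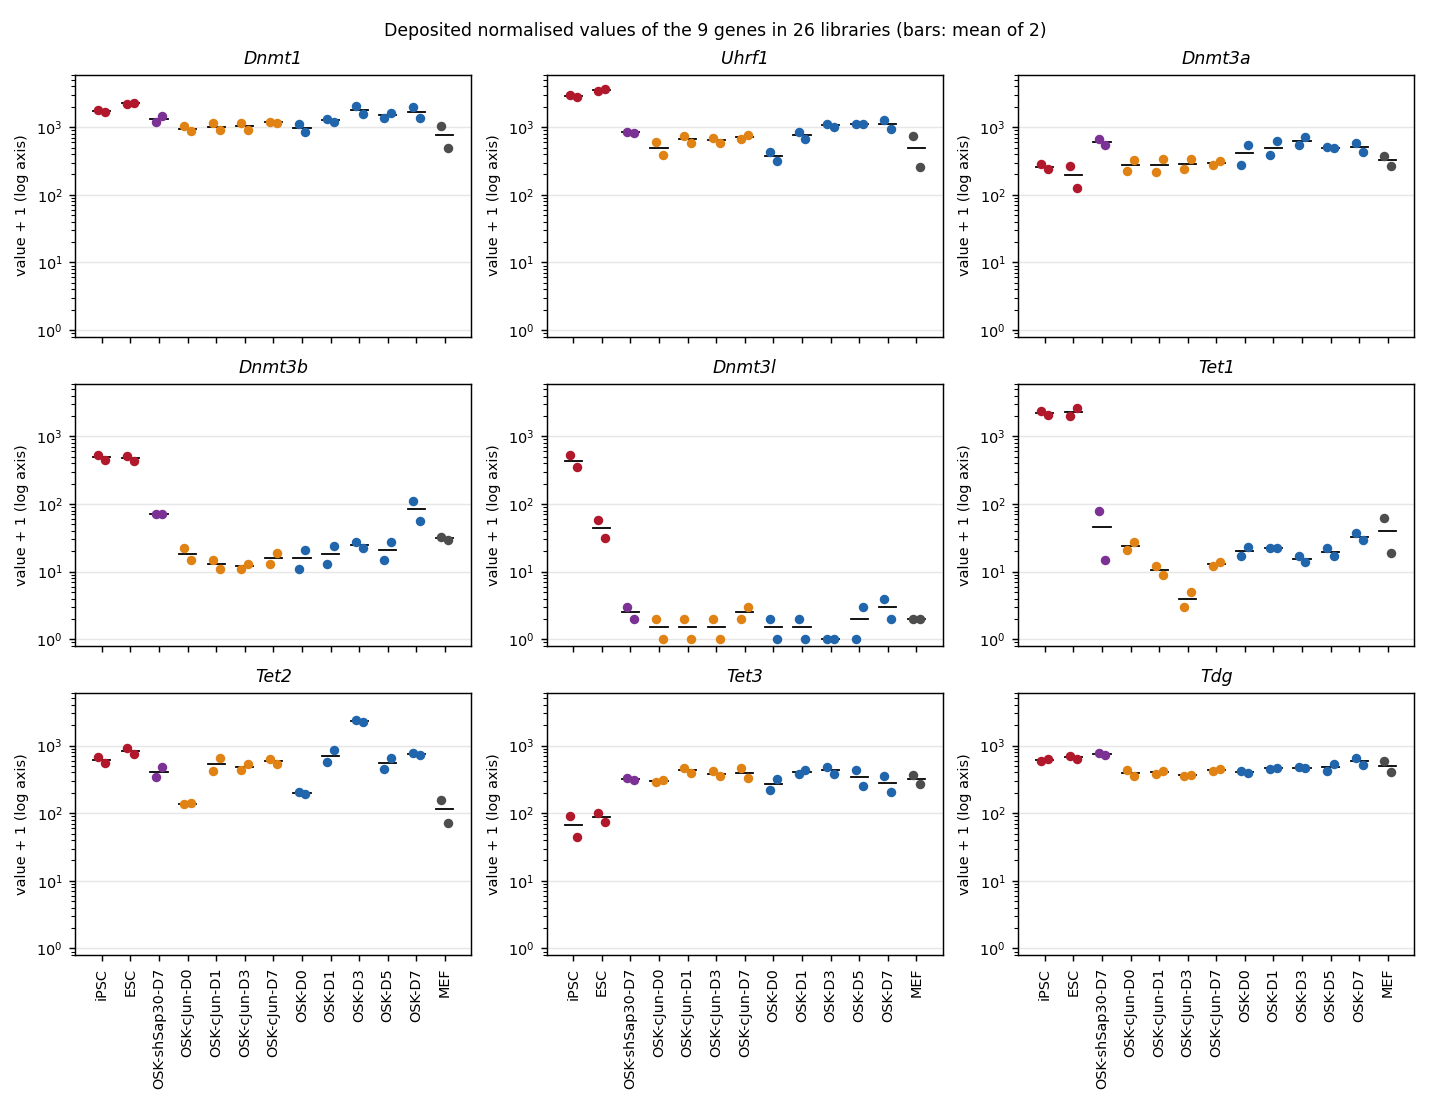
Deposited value plus 1 (log axis) of each of the 9 genes, with 1 point per library, groups along the horizontal axis and a bar at the mean of 2. Dnmt3b, Dnmt3l and Tet1 are highest in iPSC and ESC, Tet3 is lowest there, and Tet2 peaks in OSK-D3 at 2414 and 2198.

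Pluripotent cells differed from fibroblasts in most of these genes. In ESC, 6 of 9 rose against MEF and 1 fell, where 22.4% of all tested genes rose and 20.6% fell, and in iPSC the same counts were 6 and 1, against 20.2% and 19.7%. The median log2 fold of the 9 genes was 2.94 for ESC against MEF, beside 0.13 for all tested genes, and 2.50 for iPSC against MEF, beside 0.04. A gene was counted as risen or fallen when limma gave a Benjamini-Hochberg adjusted p under 0.05, taken over all tested genes, together with a log2 fold of 1 or more in size. Folds compare means of log2(value + 1) over 2 libraries, which understates the change of genes near 0, and standard errors come from a fit to all 26 libraries. The comparisons with MEF share the MEF libraries and are given side by side.

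Uhrf1, which reads hemimethylated CpG, stood at 3406 and 3608 in ESC and at 3030 and 2792 in iPSC, against 727 and 261 in MEF. Both pluripotent groups lay above every MEF and reprogramming library. Its log2 fold against MEF was 3.01 in ESC (SE 0.33, adjusted p = 5.3e-07) and 2.74 in iPSC (SE 0.33, adjusted p = 2.58e-06). Dnmt1, the copying enzyme, stood at 2190 and 2307 in ESC and at 1766 and 1700 in iPSC, against 1024 and 499 in MEF. Its log2 fold was smaller, 1.65 in ESC (SE 0.27, adjusted p = 5.83e-05) and 1.28 in iPSC (SE 0.27, adjusted p = 0.000798). The iPSC call for Dnmt1 was lost without MEF replicate 2 (log2 fold 0.76), with only the iPSC and MEF libraries in the fit (1.28, adjusted p = 0.071) and with libraries centred on housekeeping genes (0.71). MEF replicate 2 was the lower MEF library for both genes, and its summed value over 16 DNA replication genes was 6286, against 14144 in MEF replicate 1. Those 16 genes summed to 31557 to 33368 in iPSC and 32907 to 34175 in ESC, so replication genes moved with Dnmt1 and Uhrf1, and their part in the result was not tested.

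Among the de novo genes, Dnmt3b rose and its relative Dnmt3a did not pass the test. Dnmt3b, a de novo methyltransferase of early embryonic cells, stood at 520 and 435 in ESC and 537 and 451 in iPSC, against 32 and 28 in MEF. The pluripotent libraries lay more than an order of magnitude above MEF, with log2 folds of 3.95 in ESC (SE 0.41, adjusted p = 3.67e-07) and 3.99 in iPSC (SE 0.41, adjusted p = 5.84e-07). Dnmt3a, the other de novo enzyme, stood at 269 and 127 in ESC and 285 and 237 in iPSC, against 380 and 266 in MEF. The ESC libraries were far apart, and the log2 fold of -0.78 (SE 0.37, adjusted p = 0.0873) became a called fall of -1.32 without ESC replicate 1. For iPSC against MEF the Dnmt3a log2 fold was -0.29 (SE 0.37, adjusted p = 0.549). Over all 13 groups Dnmt3a means ran from 623.5 in OSK day 3 down to 261 in iPSC and 198 in ESC, and the libraries of every pair of neighbours in that order overlapped.

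Dnmt3l, the catalytically inactive cofactor, was the member that differed most between the 2 pluripotent groups. It stood at 525 and 349 in iPSC and at 57 and 30 in ESC, against 1 and 1 in MEF. All other libraries held values of 0 to 3. The log2 fold against MEF was 7.75 in iPSC (SE 0.70, adjusted p = 1.3e-07) and 4.41 in ESC (SE 0.70, adjusted p = 4.03e-05). With 10 in place of 1 added to the values the ESC figure was 2.23. Between iPSC and ESC the log2 fold was 3.34 (SE 0.70, adjusted p = 0.0051), and the libraries did not overlap. That call was lost without ESC replicate 2 (2.89), without iPSC replicate 1 (3.05) and with 0.1 added to the values (3.37, adjusted p = 0.349). Fibroblast markers were also higher in iPSC than in ESC, in 8 of 8 genes, and their part in the Dnmt3l difference was not tested.

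The other 8 genes did not pass the test between iPSC and ESC in either direction. Of all tested genes 4.57% were higher in iPSC (998 called in all, 73.5% of them higher). Tet1 had a log2 fold of -0.03 (95% interval -1.25 to 1.19) and Dnmt3b one of 0.05 (-0.82 to 0.92), so the interval for Tet1 reached past 1 log2 unit either way. For Dnmt1 the interval was -0.95 to 0.20, for Uhrf1 -0.96 to 0.42, for Tet2 -1.09 to 0.21, for Tet3 -1.14 to 0.25, for Dnmt3a -0.30 to 1.28 and for Tdg -0.52 to 0.26. Passage number and cell type cannot be told apart in this comparison. The labels name a strain for ESC alone, so a difference of strain cannot be told apart either.

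The gene for Aire, a transcriptional regulator known from the thymus, lies on the opposite strand and shares 67 bases of annotated exon with the 2988 exonic bases of Dnmt3l. It was also the gene whose 13 group means were most like those of Dnmt3l (Pearson r = 0.99 over 13 groups). Aire stood at 109 and 70 in iPSC, 13 and 6 in ESC and 0 to 1 in all other libraries. The library kit does not mark strand, so reads of the shared bases cannot be assigned to 1 of the 2 genes. Tdg shares 367 of 5374 exonic bases with Glt8d2, whose values did not go above 70, and Dnmt3a and Tet2 share 133 and 43 bases with antisense transcripts not analysed here.

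The Tet genes changed in opposite directions. Tet1, the main Tet of pluripotent cells, stood at 1989 and 2619 in ESC and 2405 and 2076 in iPSC, against 61 and 18 in MEF. No other library exceeded 77, and the log2 fold against MEF was 6.06 in ESC (SE 0.58, adjusted p = 1.21e-07) and 6.03 in iPSC (SE 0.58, adjusted p = 2.56e-07). Its size varied with the MEF library used, at 6.91 in ESC and 6.88 in iPSC without MEF replicate 1, and 5.20 and 5.17 without MEF replicate 2. Tet2 stood at 906 and 742 in ESC and 671 and 544 in iPSC, against 157 and 71 in MEF, with log2 folds of 2.94 (SE 0.31, adjusted p = 3.71e-07) and 2.50 (SE 0.31, adjusted p = 3.89e-06). Tet3, the family member of the oocyte and zygote that is also expressed in many somatic tissues, stood at 99 and 74 in ESC and 89 and 44 in iPSC, against 364 and 266 in MEF. It fell by 1.85 in ESC (SE 0.33, adjusted p = 0.000135) and fell by 2.29 in iPSC (SE 0.33, adjusted p = 1.99e-05), and both pluripotent groups lay below every other library. Tdg stood at 708 and 638 in ESC and 589 and 642 in iPSC, against 596 and 407 in MEF, with log2 folds of 0.45 (SE 0.18, adjusted p = 0.0481) and 0.32 (SE 0.18, adjusted p = 0.158), short of the required size. Over all 13 groups Tdg means kept within 364 to 746.

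Expressed per kilobase of merged exon, which differs little between the 3 genes (15.457, 16.87 and 16.695 kb), the makeup of the Tet family turned over. Tet1 took 77.5% and 79.4% of the summed Tet value per kb in the iPSC libraries and 68.3% and 77.8% in the ESC libraries, against 11.3% and 5.47% in the MEF libraries. Tet3 took 2.66% and 1.56% in iPSC and 3.15% and 2.03% in ESC, against 62.2% and 74.8% in MEF. At OSK day 3 Tet2 took 82.7% and 84.8%. Whether the deposited values were already divided by length is not given in the sources used here, and without that division the Tet1 share in ESC replicate 1 was 66.4%.

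**Figure D2:**
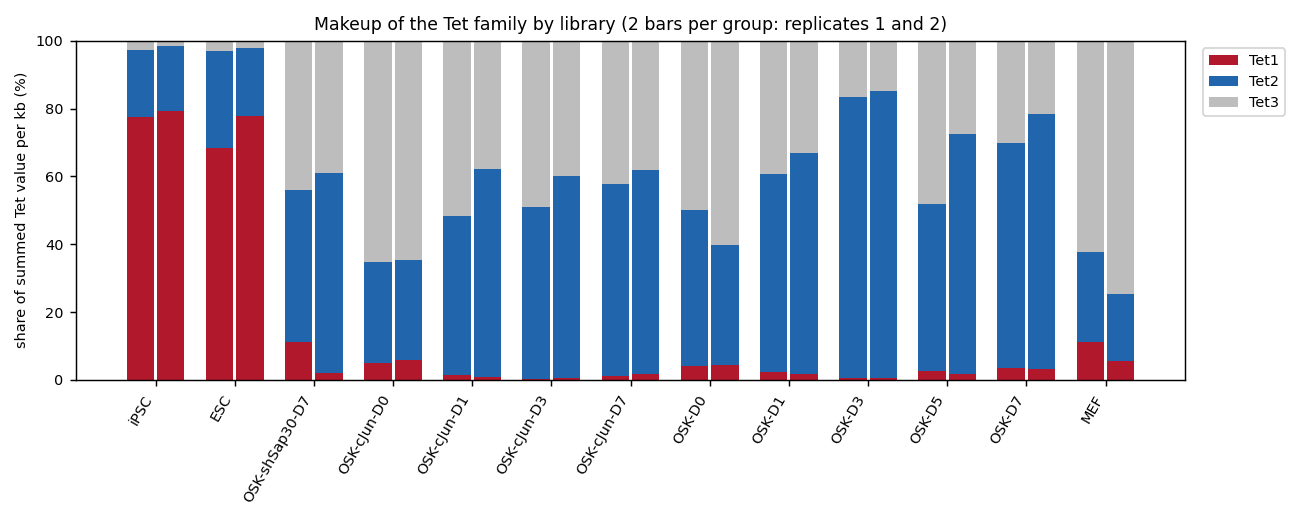
Stacked bars give the percent of summed Tet1, Tet2 and Tet3 value per kb in each library, with 2 bars per group. Tet1 takes 68.3% to 79.4% in iPSC and ESC, Tet3 takes 62.2% and 74.8% in MEF, and Tet2 takes 82.7% and 84.8% in OSK-D3.

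At day 0, none of the 9 genes was called by limma in OSK against MEF, beside 6.98% of all tested genes called (3488 of 16038 at an unadjusted p under 0.05). Tet2 stood at 204 and 191 in OSK day 0, against 157 and 71 in MEF (log2 fold 0.90, SE 0.31, adjusted p = 0.0852), and was called without MEF replicate 1 (1.46). Dnmt3b stood at 10 and 20 in OSK day 0, against 32 and 28 in MEF (-1.03, SE 0.41, adjusted p = 0.148). Pou5f1 stood at 11662 and 8974 in OSK day 0 and at 6923 and 7715 in OSK-cJun day 0, against 2 and 0 in MEF. Folds against day 0 therefore do not start from cells without that factor.

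During the OSK course Tet2 was called on every day tested against day 0. The day 0 libraries held 204 and 191, those of day 1 held 567 and 851, those of day 3 held 2414 and 2198, those of day 5 held 450 and 661, and those of day 7 held 779 and 734. Both day 3 values were above every other Tet2 value of the series, and the day 5 libraries overlapped those of day 1. Against day 0 the log2 fold was 1.81 at day 1 (SE 0.31, adjusted p = 0.00139), 3.54 at day 3 (SE 0.31, adjusted p = 3.58e-07), 1.46 at day 5 (SE 0.31, adjusted p = 0.0019) and 1.93 at day 7 (SE 0.31, adjusted p = 0.000121). The day 5 value was 1.74 without OSK day 5 replicate 1 (adjusted p = 0.0029) and 1.18 without replicate 2 (adjusted p = 0.0289). At day 1 it was the 1 called gene of the 9, where 3.18% of all tested genes rose, and with only the compared libraries in the fit the day 1 value had an adjusted p of 0.0598. Comparisons of neighbouring days were added after the values were seen. Tet2 was higher at day 3 than at day 1 by 1.73 (SE 0.31, adjusted p = 0.00173), where 3.55% of all tested genes rose, and the difference was 1.12 with libraries centred on housekeeping genes. Between day 5 and day 3 it fell by 2.08 (SE 0.31, adjusted p = 0.00674), where 0.237% of all tested genes fell. The fall was not called without OSK day 3 replicate 1 (-2.01, adjusted p = 0.124), without OSK day 5 replicate 1 (-1.80, adjusted p = 0.0553) or with only the compared libraries in the fit (adjusted p = 0.507), and was -2.35 without OSK day 5 replicate 2 (adjusted p = 0.00309).

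The copying pair changed by smaller amounts. Uhrf1 held 432 and 315 on day 0, then 836 and 677 (day 1), 1128 and 1015 (day 3), 1109 and 1109 (day 5), and last 1278 and 936 on day 7. All libraries from day 1 on lay above day 0, and the log2 fold against day 0 was 1.53 at day 3 (SE 0.33, adjusted p = 0.00209), 1.59 at day 5 (SE 0.33, adjusted p = 0.00147) and 1.57 at day 7 (SE 0.33, adjusted p = 0.00129). The day 1 log2 fold of 1.03 (SE 0.33, adjusted p = 0.0613) was not called. With a term for replicate number in the limma fit it passed (adjusted p = 0.0248). The day 5 value stayed at 1.59 without either day 5 replicate. Dnmt1 held 1128 and 842 on day 0, 2032 and 1586 on day 3, and 1985 and 1386 on day 7. Its log2 folds against day 0 of 0.88 at day 3 (SE 0.27, adjusted p = 0.0253) and 0.77 at day 7 (SE 0.27, adjusted p = 0.0387) were under the required size, and passed it without OSK day 0 replicate 1 or OSK day 3 replicate 2 (1.09 and 1.06) and without OSK day 7 replicate 2 (1.03). Of the 16 replication genes, 3 rose against day 0 at day 7 (0 with libraries centred on housekeeping genes), where 11.3% of all tested genes rose. At day 3, 0 of the 16 rose, where 8.55% of all tested genes did, and 1, the ribonucleotide reductase subunit Rrm1, fell (log2 fold -1.29). With housekeeping centring 3 of the 16 fell at day 3. Without it 2766 of all tested genes were called at that day, 49.6% of them higher. The median log2 fold of the 16 at day 3 was 0.37 (0 over all tested genes, and -0.72 for the 16 with housekeeping centring), and their summed value was 15079 and 17033 in the day 3 libraries, against 12248 and 15089 in those of day 0. Their part in the Uhrf1 rise was not tested.

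The course against day 0 depended on the scaling. Centring each library on 9 housekeeping genes lowered the median log2 fold of all genes by 1.10 at day 3 and 0.97 at day 7. It left 7.79% of called genes higher at day 3, in place of 49.6%. Each library was shifted by the median level of the 9 housekeeping genes. After the shift those genes had a median log2 fold of -0.68 at day 3 and -0.30 at day 7. The shift was thus larger than their own median change. Centring ended the Uhrf1 call at day 3 (0.44), day 5 (0.61) and day 7 (0.59). It also ended the Tet2 call at day 5 (0.49) and day 7 (0.96). The Tet2 rises at day 1 (1.32) and day 3 (2.44) held. Dnmt1 turned to -0.21 at both day 3 and day 7.

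Dnmt3b was called against day 0 at day 7 and on none of the earlier days. The values began at 10 and 20 (day 0), followed by 12 and 23 (day 1), 26 and 21 (day 3), 14 and 26 (day 5) and finally 111 and 56 (day 7). Both day 7 libraries lay above every earlier one, though they differed from each other by about 2-fold. The log2 fold at day 7 was 2.39 against day 0 (SE 0.41, adjusted p = 0.000252), and 1.42 when libraries were centred on housekeeping genes. Against day 5, in a comparison added after the values were seen, it was 1.99 (SE 0.41, adjusted p = 0.0149), where 1.91% of all tested genes rose. The day 5 comparison gave 2.41 without OSK day 5 replicate 2 (adjusted p = 0.00448) and was not called without OSK day 5 replicate 1 (1.57), without either day 7 replicate (adjusted p = 0.0683 and 0.0844) or with only the compared libraries in the fit (adjusted p = 0.433). At day 7 in all, 3 of 9 genes rose (Uhrf1, Dnmt3b and Tet2) and 0 fell against day 0, where 11.3% of all tested genes rose, and at day 3 and day 5 the risen genes were Uhrf1 and Tet2, where 8.55% and 9.80% rose. Pluripotency markers summed to 184 to 223 at day 0, 360 to 432 at day 1, 2070 to 2188 at day 3, 3132 to 4888 at day 5 and 2421 to 3397 at day 7. Fibroblast markers summed to 50110 to 59404 at day 0, 38019 to 38951 at day 1, 25761 to 27668 at day 3, 12026 to 30592 at day 5 and 11102 to 11759 at day 7.

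Dnmt3a, Tet3 and Tdg did not pass both criteria at any day of the OSK course. Dnmt3a replicates were far apart early on, with 276 and 546 on day 0 and 383 and 616 on day 1, then 540 and 707 (day 3), 505 and 492 (day 5) and 590 and 425 (day 7). Tet3 began at 218 and 323, was highest on day 3 with 481 and 377, and ended at 350 and 208, with a log2 fold of 0.02 for day 7 against day 0 (95% interval -0.67 to 0.72). Tdg began at 420 and 389 and ended at 661 and 509 (0.52, SE 0.18, adjusted p = 0.0385), short of the required size and -0.45 with housekeeping centring.

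**Figure D3:**
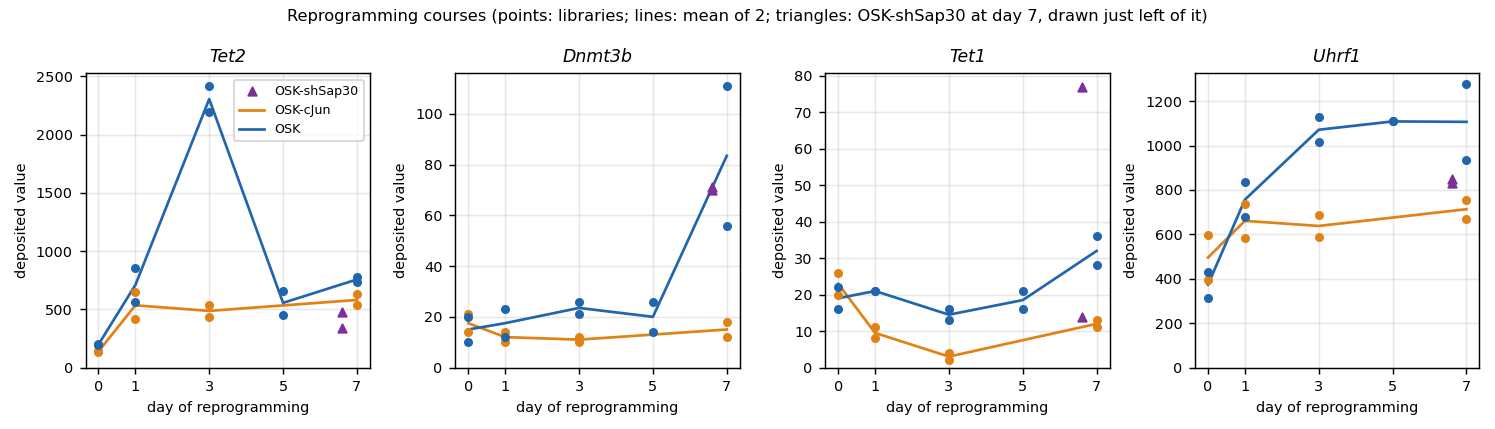
Deposited values of Tet2, Dnmt3b, Tet1 and Uhrf1 against day of reprogramming, with points for libraries, lines through the mean of 2, and triangles for OSK-shSap30 at day 7. Tet2 in OSK peaks at day 3 (2414 and 2198), Dnmt3b in OSK climbs at day 7 (111 and 56), and OSK-cJun stays at 10 to 21 for Dnmt3b.

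Established iPSC differed from day 7 cells in most of these genes. Of the 9, 4 were higher in iPSC than in OSK day 7 and 1 was lower, where 14.7% of all tested genes were higher and 15.7% lower. Tet1 held 2405 and 2076 in iPSC, against 36 and 28 in OSK day 7 (log2 fold 6.09, SE 0.58, adjusted p = 4.23e-07), and Dnmt3l stood at 525 and 349, against 3 and 1 (7.25, SE 0.70, adjusted p = 4.79e-07). Across the OSK course Tet1 had kept to 13 to 36 and Dnmt3l to 0 to 3, and neither was called at any day against day 0, except for a fall of Tet1 at day 3 (-1.45) with housekeeping centring. Dnmt3b had 537 and 451 in iPSC, against 111 and 56 in OSK day 7 (2.63, SE 0.41, adjusted p = 8.24e-05), and Uhrf1 had 3030 and 2792, against 1278 and 936 (1.41, SE 0.33, adjusted p = 0.00222). Tet3 values were 89 and 44 in iPSC, against 350 and 208 in OSK day 7, and fell by 2.09 (SE 0.33, adjusted p = 8.39e-05). Centring on housekeeping genes moved the Tet3 value to -1.36 and that of Uhrf1 to 2.14. Dnmt1 (log2 fold 0.06, 95% interval -0.51 to 0.64), Tet2 (-0.32, -0.98 to 0.33), Tdg (0.08, -0.30 to 0.47) and Dnmt3a (-0.94, -1.73 to -0.16) did not pass the test. Culture medium and cell state cannot be told apart here.

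**Figure D4:**
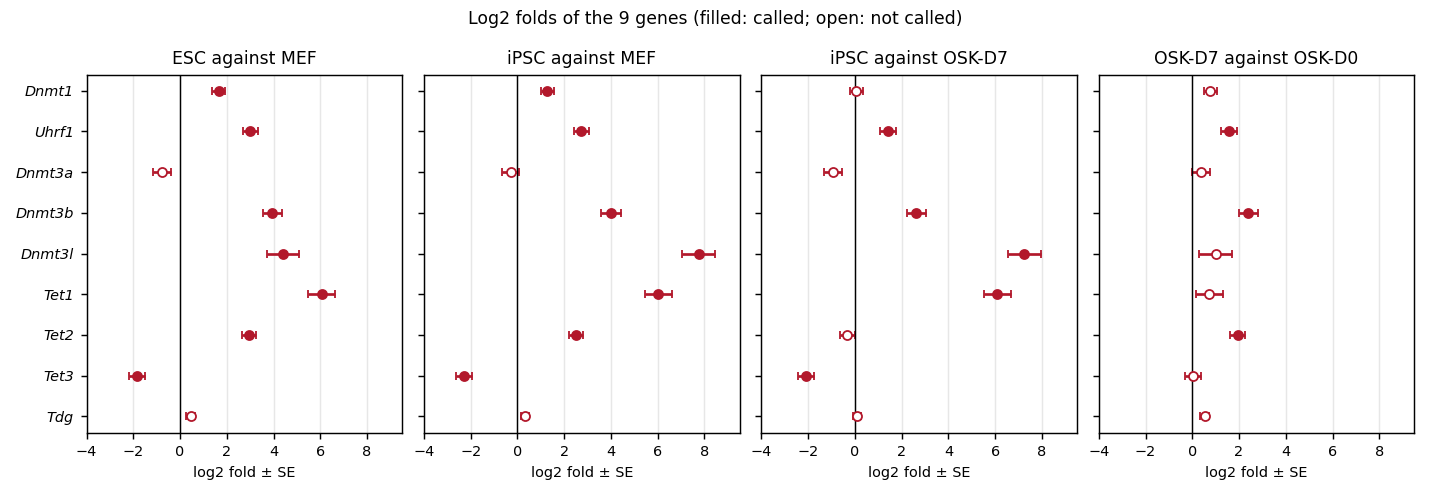
Log2 fold with its SE for each gene in 4 comparisons, filled where called. Tet1 has log2 folds of 6.06, 6.03 and 6.09 in the 3 comparisons that place pluripotent cells against others, and 0.73 for OSK-D7 against OSK-D0.

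Adding cJun, a subunit of AP-1 known to block this reprogramming, was compared with OSK alone on matched days. At day 0 none of the 9 genes was called by limma (12 of 16038 genes called, 0.0748%, and 712 at an unadjusted p under 0.05), and at day 1 none was (1.98% of all tested genes called, 1934 at an unadjusted p under 0.05). At day 3 Tet2 stood at 435 and 538 in OSK-cJun, against 2414 and 2198 in OSK, and fell by 2.25 (SE 0.31, adjusted p = 0.000183). The OSK-cJun libraries of day 3 were near their own day 1 values of 420 and 649. The added test of whether the change from day 0 to day 3 differed between the courses gave -1.74 for Tet2 (SE 0.44, adjusted p = 0.0689, beside 1.12% of all tested genes called), short of the threshold, and passed with 10 added to the values (adjusted p = 0.0382) or with only the compared libraries in the fit (adjusted p = 0.0221). Tet1 stood at 2 and 4 in OSK-cJun day 3, against 16 and 13 in OSK day 3, and fell by 1.99 (SE 0.58, adjusted p = 0.0369). That call at low values was lost without any 1 of the 4 libraries (log2 folds -2.36 to -1.63) and with 10 added (-0.92). In total 2 of 9 genes fell and 0 rose at day 3, where 3.54% of all tested genes fell (1210 called in all, 53.1% of them higher). The median log2 fold of the 9 was -0.81, beside -0.02 for all tested genes. Among those not called, Dnmt3a held 241 and 335, against 540 and 707 (-1.35 to -0.88 on leaving out 1 library). Dnmt3b held 10 and 12, against 26 and 21 (-1.17 to -0.88), and Dnmt3l, at 0 or 1 in these libraries, was not lower.

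At day 7 Dnmt3b was the 1 called gene, where 5.03% of all tested genes fell. It stood at 12 and 18 in OSK-cJun, against 111 and 56 in OSK, and fell by 2.35 (SE 0.41, adjusted p = 0.000885). The OSK-cJun day 7 values were close to those of OSK-cJun day 0 (21 and 14). The test of the difference between courses, from day 0 to day 7, gave -2.60 for Dnmt3b (SE 0.59, adjusted p = 0.0187), where 1.36% of all tested genes were called in that direction. It was not called without replicate 1 of OSK day 0 (-2.14), OSK day 7 (-2.12), OSK-cJun day 0 (-2.33) or OSK-cJun day 7 (-2.33), nor with only the compared libraries in the fit (adjusted p = 0.117), which also ended the day 7 call (adjusted p = 0.0857). Within the OSK-cJun course Tet2 was higher at day 7 than at day 0 by 2.06 (SE 0.31, adjusted p = 9.32e-05; 1.17 with housekeeping centring), where 8.89% of all tested genes rose, and its day 7 values of 628 and 533 compared with 779 and 734 in OSK (-0.39, SE 0.31, adjusted p = 0.454). Uhrf1 stood at 670 and 757 in OSK-cJun day 7, against 1278 and 936 in OSK day 7 (-0.62, SE 0.33, adjusted p = 0.219). Dnmt1 stood at 1200 and 1162, against 1985 and 1386 (-0.49, adjusted p = 0.246), and Dnmt3a at 279 and 317, against 590 and 425 (-0.75, adjusted p = 0.191). Tet1 stood at 11 and 13, against 36 and 28, and was not called (log2 folds -1.51 to -1.16 on leaving out 1 library). Within the OSK-cJun course Tet1 was a called fall at day 7 against day 0 with housekeeping centring (-1.76, limma adjusted p = 0.0198). Fibroblast markers summed to 34921 to 35516 in OSK-cJun day 7, against 11102 to 11759 in OSK day 7, and pluripotency markers to 803 to 1067, against 2421 to 3397, and their part in the Dnmt3b result was not tested.

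With the Sap30 hairpin, which targets a subunit of the Sin3 deacetylase complex, none of the 9 genes was called at day 7 by limma, beside 9.85% of all tested genes (1580 called, 4712 at an unadjusted p under 0.05). On the deposited scaling Tet2 came closest, at 342 and 476 in OSK-shSap30, against 779 and 734 in OSK day 7 (log2 fold -0.90, SE 0.31, adjusted p = 0.0583). Housekeeping centring raised the median log2 fold of all genes by 0.38 in this comparison. The share of called genes that were higher was then 86.8%, in place of 50.1%, so folds here depend on the scaling. Dnmt3b stood at 71 and 70 in OSK-shSap30, against 111 and 56 in OSK day 7 (-0.16, 95% interval -1.03 to 0.71). Tet1 stood at 77 and 14 in OSK-shSap30, a wide gap between replicates, against 36 and 28 in OSK day 7. Tdg had its highest group mean here, at 766 and 726, against 661 and 509 in OSK day 7 (0.36, SE 0.18, adjusted p = 0.201).

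Related genes were looked at by list. Among all tested genes, 22.4% rose and 20.6% fell in ESC against MEF. In iPSC against OSK day 7, 14.7% were higher and 15.7% lower. Of 12 base excision repair genes, which include other glycosylases and the enzymes that complete repair, 8 rose and 0 fell in ESC against MEF, with a median log2 fold of 1.55 (0.13 over all tested genes). Ung, the uracil glycosylase, stood at 614 and 671 in ESC, against 52 and 31 in MEF, and at 662 and 702 in iPSC, against 80 and 60 in OSK day 7. Of 16 replication genes, 14 rose in ESC against MEF, with a median of 1.93, among them Mcm2, a helicase subunit (2.74), and Hells, a remodeller needed for normal DNA methylation (2.73). Of 9 methyl-CpG readers, 1 rose and 4 fell in ESC against MEF, with a median of -0.96. The zinc-finger reader Zbtb4 fell by 3.59 and Mbd2 fell by 2.03, while the glycosylase Mbd4 rose by 2.81. In iPSC against OSK day 7, 5 of 9 readers fell and 0 rose (1 and 2 with housekeeping centring), with a median of -1.16 (0.06 over all tested genes), among them the Uhrf1 relative Uhrf2 (200 and 242 in iPSC, 505 and 614 in OSK day 7).

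Of 12 genes that direct or restrain methylation, 7 rose and 0 fell in ESC against MEF, with a median of 1.18. In that comparison 22.4% of all tested genes rose and 20.6% fell. Dppa3, which guards maternal methylation in the zygote and can displace Uhrf1 from chromatin, stood at 486 and 605 in ESC and 122 and 109 in iPSC, against 0 and 1 in MEF and 3 and 3 in OSK day 7. Prdm14, a repressor of Dnmt3b in mouse stem cells, stood at 341 and 233 in ESC and 165 and 132 in iPSC, against 0 and 1 in MEF and 2 and 3 in OSK day 7. Zfp57, which keeps methylation at imprinted regions, was already raised at day 3 (1.30) and stood at 684 and 684 in OSK day 7, against 204 and 242 at day 0 (1.62, SE 0.33), but with housekeeping centring 0 of the 12 rose at either day. Its value in OSK-cJun day 7 was 232 and 243, lower than OSK day 7 by a log2 fold of -1.52. Of 12 genes of methyl donor supply, 8 rose and 0 fell in ESC against MEF (median 1.47), and Tdh, the threonine dehydrogenase of mouse stem cells, stood at 1079 and 539 in OSK day 7, against 26 and 17 in OSK-cJun day 7.

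Of 7 Tet partners, 3 rose and 1 fell at OSK day 7 against day 0 (2 and 2 with housekeeping centring), where 11.3% of all tested genes rose and 12.6% fell. Sall4, a zinc-finger protein of stem cells, stood at 293 and 172 at day 7, against 10 and 2 at day 0. Cxxc5, a CXXC protein known to lower Tet2 protein, fell by 2.57 at day 3 and stood at 24 and 15 at day 7, against 121 and 103 at day 0. It stood at 239 and 280 in iPSC. Of 11 tested germline genes, a class that somatic cells silence by promoter methylation, 8 were higher and 0 lower in iPSC than in OSK day 7, where 14.7% of all tested genes were higher and 15.7% lower. At OSK day 7 against day 0, 0 of the 11 were called by limma in either direction, beside 11.3% risen and 12.6% fallen of all tested genes, a background that also leaves few calls among 11 genes. A gene at 0 on day 0, such as Ddx4, could not fall. At day 5 Ddx4 was called higher than at day 0 by limma, at a mean of 5 (log2 fold 2.50, adjusted p = 0.0335). With housekeeping centring 0 of the 11 rose at day 5. Hormad1, a meiotic chromosome-axis gene, stood at 180 and 135 in iPSC and was listed at 0 in both OSK day 7 libraries, as was Dazl, a germ-cell RNA-binding protein, at 135 and 108 in iPSC.

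**Figure D5:**
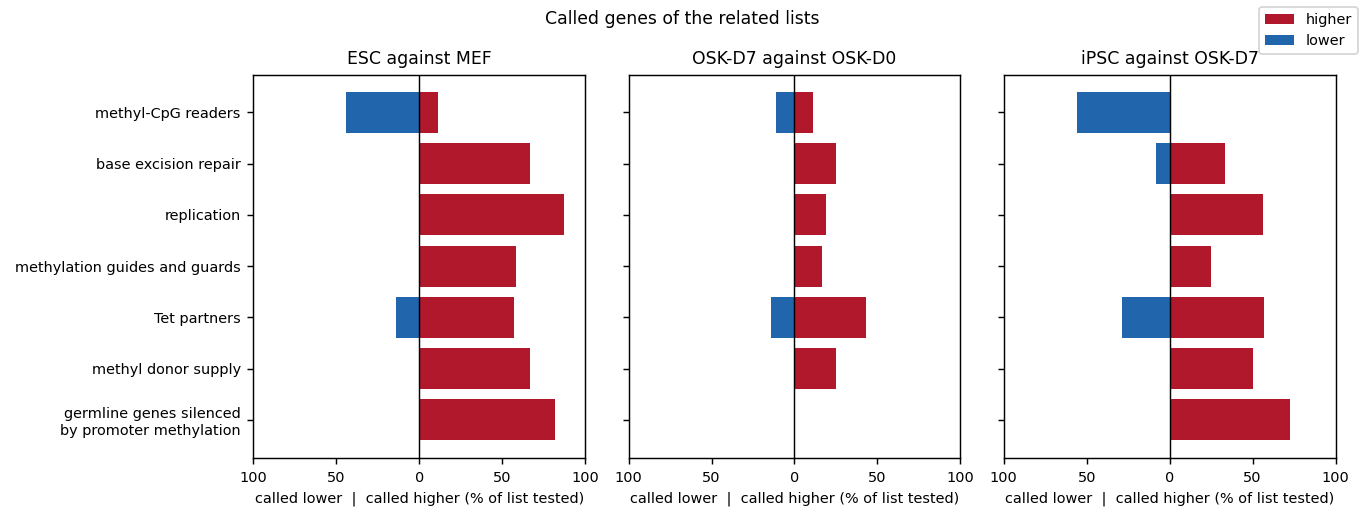
Bars give the percent of tested genes in each of 7 related lists called higher (right) or lower (left) in 3 comparisons. None of the 11 germline genes is called for OSK-D7 against OSK-D0, and 8 are higher in iPSC than in OSK-D7.

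The pattern of each gene over the 13 group means was set beside those of 11756 other genes with a highest group mean of 50 or more. Dnmt3b was most like Taf5, a subunit of a general transcription factor (r = 0.99), and Tet1 most like Aars2, a mitochondrial tRNA synthetase (r = 0.99). Uhrf1 was most like H2-M5 (r = 0.99), Tet3 most like Hoxb4 (r = 0.98), Dnmt1 most like Pou2f1 (r = 0.96), Tdg most like Prr3 (r = 0.96) and Dnmt3a most like Tfcp2 (r = 0.95). Tet2 had the least close match, Stk38 (r = 0.90). Among the 9 genes, Dnmt3b and Tet1 were closest (r = 0.95), and Tet1 and Tet3 were furthest apart (r = -0.96). These are descriptions over 13 groups that share one normalisation, and no p is given for them.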

How the data were processed

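The deposited file gives, for 18198 Ensembl genes and 26 libraries, a normalised score made by the authors, in whole numbers. Per the labels' protocols, TRIzol RNA went through the TruSeq RNA kit, and per the submitters' processing notes bcl2fastq, Bowtie2 and RSEM were used with mm10. Further steps and versions are not given in the sources used here. Library totals were 4619641 to 4624161 and sorted values differed by at most 2 at any rank, so no depth or counting interval can be given and each value depends on all others in its library. A symbol was matched for 18039 genes, and 0 sample columns were left unused. After adding 1, values were log2 transformed. Genes with at least 10 in at least 2 libraries were kept, and limma 3.58.1 (R 4.3.3, statmod 1.5.0) was fitted to all libraries with a mean per group, with robust moderation along mean expression. The calculation was tested on simulated data. The rule for named genes took all 9 members, the 3 genes most like each by Pearson r, and up to 2 risen and 2 fallen genes per list and comparison. Aire and Glt8d2 were chosen for overlapping members, and Sap30 and Jun for the label check. Members, lists and comparisons were chosen with earlier results of these data known. Promoter sequences are from RefSeq (GRCm38.p6). Plots used matplotlib 3.10.9 under Python 3.11.15. Alternatives covered the added constant, the filter, the libraries fitted, the variance model, housekeeping centring, a replicate block and leaving out each library.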

Additional observations from a re-analysis of the deposited data

Results flagged for a closer look

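The Dnmt3b change over the course, day 7 minus day 0, was lower with cJun than with OSK alone by a log2 value of -2.60 (limma, SE 0.59, adjusted p = 0.0187). It was singled out because the difference between the 2 courses was itself tested and passed. The call was lost without replicate 1 of OSK day 0 (-2.14), OSK day 7 (-2.12), OSK-cJun day 0 (-2.33) or OSK-cJun day 7 (-2.33). It was also lost with only the compared libraries in the limma fit (adjusted p = 0.117). Both OSK-cJun day 7 libraries (12 and 18) lay below both OSK day 7 libraries (111 and 56).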

How the results depend on the processing

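Over 20 comparisons of 9 genes and their alternatives, 2189 gene values kept their side of the threshold, 33 lost a call, 10 gained one and 0 called values changed sign. Centring on 9 housekeeping genes moved the median of all genes by -1.10 (OSK day 3 against day 0) to 0.73 (iPSC against OSK day 7). The housekeeping genes themselves then had median log2 folds of -0.68 and 0.42 in those comparisons, so the shift was larger than their own median change. Of the 9 methylation and Tet genes, centring left 0 called at OSK day 5, 1 at OSK day 7, 1 for OSK-cJun against OSK at day 3 and 2 within the OSK-cJun course. The share of called genes that were higher was then 27.7% in place of 50.6% for iPSC against MEF, 34.1% in place of 73.5% for iPSC against ESC, 11.8% in place of 47.3% for OSK day 7 against day 0, 79.4% in place of 48.4% for iPSC against OSK day 7, and 86.8% in place of 50.1% for OSK-shSap30 against OSK. With only the compared libraries in the fit, 0 genes were called at OSK day 1, 1 for OSK-cJun against OSK at day 3, and 0 at day 7 and for the difference between courses; fewer samples entered that fit. With 10 added, or with a common prior variance, 1 was called for OSK-cJun against OSK at day 3, and with 0.1 added 0 between iPSC and ESC. Elsewhere the cause was not tested. The replicate block gave 2 called genes at OSK day 1, where Uhrf1 joined (1.03, adjusted p = 0.0248), and changed no other call of the 9 genes. Same-numbered replicates correlated between groups at -0.09 to 0.33 (median -0.001), with 28 of 78 pairs of groups over 0.1. Whether same-numbered libraries of some groups shared a batch was not tested. The labels do not say that the numbers pair libraries, and the main fit had no replicate term. Leaving out 1 library gave 0 to 1 called genes for OSK day 0 against MEF, 1 to 1 for OSK-cJun against OSK at day 3, 0 to 1 for the difference between courses and 0 to 1 for iPSC against ESC; a group left with 1 library was assumed to vary like the others. Over the alternatives, the number of all genes called was 0 to 1349 for OSK day 0 against MEF (1120 as reported), 53 to 1571 for OSK day 1 (1010), 2045 to 7639 for day 3 (2766), 1667 to 7021 for day 5 (3152), 2974 to 6606 for day 7 (3819), 376 to 1501 for iPSC against ESC (998) and 0 to 2022 for OSK-shSap30 (1580). For OSK-cJun against OSK it was 0 to 23 at day 0 (12), 0 to 441 at day 1 (318), 717 to 1736 at day 3 (1210), 541 to 2019 at day 7 (1891) and 208 to 888 for the difference between courses (613), and 2076 to 6447 within the OSK-cJun course (2836).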
